A study of Mus musculus with 6 samples.

Results

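The hedgehog pathway was followed through 10 genes on 6 Affymetrix arrays of mouse uterine RNA. The genes were the ligands Shh, Ihh and Dhh, the surface proteins Ptch1, Hhip, Gas1 and Smo, and the transcription factors Gli1, Gli2 and Gli3. They were taken by gene symbol, from probe sets whose annotation gives 1 symbol, and made up 10 of 18193 genes and 24 of 45037 probe sets. Mutant mice were Pgr cre/+ Ctnnb1f(ex3)/+. The study describes its controls as Pgr cre/+ and Ctnnb1f(ex3)/+ mice, whereas wild type is the genotype in the sample labels. Cre, made wherever the Pgr gene is active (also outside the uterus, as in the ovary and pituitary), removes exon 3 of Ctnnb1, and the shortened β-catenin resists degradation. All mice were female and 4 weeks old, and each group had 3 arrays. By the methods, RNA of 3 uteri was pooled for each genotype, so the arrays of a group may not hold separate animals. The p-values then measure the spread between arrays, which may be technical.

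Hedgehog ligands are secreted proteins that bind the receptor Ptch1 and so release Smo, a membrane protein that Ptch1 holds inactive. Active Smo lets Gli factors switch on target genes, among them Gli1, Ptch1 and Hhip, and the last pair in turn restrains the ligand. In the mouse uterus, Ihh is known as a progesterone-induced ligand of the epithelium, and Ptch1, Gli factors and the nuclear receptor Nr2f2 are known to receive or carry its signal in the stroma.

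In the mutant uterus, 4 of the 10 genes passed limma (adjusted p under 0.05 over all genes) as higher than in the control, and 0 as lower. At an unadjusted p under 0.05 these counts were 5 and 2, and the share of all genes at this threshold was not counted. The ligands Shh and Ihh rose, as did Hhip and Ptch1, while Dhh, Smo, Gas1 and the 3 Gli factors did not pass the test. By the adjusted p, 5.61% of all genes were called higher and 6.36% lower. The 10 genes had been chosen with earlier results of these data known. By the study's fold threshold of 1.5, joined to an unadjusted p under 0.05, the count was again 4 higher and 0 lower, and 4.09% of all genes were called higher and 4.16% lower. All 3 mutant arrays lay above all 3 control arrays for 6 of the 10 genes, against 14.9% of all genes, and below them for 2, against 17.4% of all genes. The median log2 fold change of the 10 genes was 0.16, against -0.01 over all genes.

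The promoters of 3 of the 4 higher genes are shown because these genes were called in the same direction, and they come from RefSeq (GRCm38.p6). Of the 10 genes, 8 had an entry, which Shh and Gli1 lacked. Each line gives the 250 bases before the annotated start, 5′ to 3′ on the gene's strand, with CG dinucleotides in capitals. Ihh lies on the minus strand, and its promoter is chr1:74951673-74951922.
Ihh: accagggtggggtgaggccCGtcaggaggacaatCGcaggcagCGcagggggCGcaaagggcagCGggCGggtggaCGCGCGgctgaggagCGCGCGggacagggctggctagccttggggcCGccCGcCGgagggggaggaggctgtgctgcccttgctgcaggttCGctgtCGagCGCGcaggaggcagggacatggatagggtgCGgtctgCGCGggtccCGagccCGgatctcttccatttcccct
Ptch1 lies on the minus strand, and this stretch, before a start inside the gene's annotated span, is chr13:63565736-63565985.
Ptch1: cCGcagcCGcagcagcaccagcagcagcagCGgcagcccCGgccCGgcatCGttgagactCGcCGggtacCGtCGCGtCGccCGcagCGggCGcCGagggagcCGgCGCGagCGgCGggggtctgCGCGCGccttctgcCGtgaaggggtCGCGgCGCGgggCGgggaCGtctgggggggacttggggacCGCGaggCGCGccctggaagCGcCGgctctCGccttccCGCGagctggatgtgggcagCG
Hhip lies on the minus strand, and its promoter is chr8:80058009-80058258.
Hhip: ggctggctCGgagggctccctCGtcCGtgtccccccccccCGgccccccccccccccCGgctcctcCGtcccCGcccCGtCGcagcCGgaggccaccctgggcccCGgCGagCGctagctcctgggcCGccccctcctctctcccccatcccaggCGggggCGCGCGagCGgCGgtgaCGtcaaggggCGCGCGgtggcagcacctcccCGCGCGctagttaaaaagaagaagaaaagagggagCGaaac
The Ihh stretch held 24 CG dinucleotides, that of Ptch1 41 and that of Hhip 28, against a median of 6 over 32851 promoters of all genes. The other 5 promoters, of genes that did not pass, had 9 to 34. The Gli motif GACCACCCA, searched on both strands over 300 bases that run 50 past the start, matched in none of the 8 promoters and in 0.253% of all promoters. The TCF/LEF motif, searched on both strands in 4 forms, the first being CTTTGAA, the next CTTTGAT, then the form CTTTGTA and lastly the form CTTTGTT, matched 1 of the 8, that of Smo, and 16.9% of all. All 4 forms share letters with motifs of Sox factors. A missing match says only that these letters are not in this window.

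Among the ligands, Shh, best known from the limb and the neural tube, changed most. Its log2 intensity was 6.31, 7.08 and 6.93 in mutant replicates 1 to 3, against 2.27, 2.27 and 2.48 in control replicates 1 to 3. Shh was thus above an intensity of 16 (log2 of 4) on all 3 mutant arrays and on no control array. Intensities under this line, where 62.3 to 62.6% of all probe sets lay on each array, may sit near background, and no detection calls were used. The log2 fold change was 4.44 (standard error, SE, of 0.19 and limma adjusted p = 8.94e-05), or 21.7-fold, and its size depends on control values this low. With a floor of 16 on the intensity, the log2 fold change of Shh was 2.78 (limma adjusted p = 0.0251), and it passed in all 17 alternative settings.

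Shh had a second probe set, and it did not show this change. Its log2 intensities were 1.77, 2.03 and 1.67 in the mutant, against 1.58, 1.54 and 1.61 in the control. This is a log2 fold change of 0.25 (limma adjusted p = 0.244 over all probe sets), with every array far below an intensity of 16. The rise of Shh therefore rests on 1 probe set.

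Ihh was read by 1 probe set. Its log2 intensities were 4.43, 5.47 and 5.78 in mutant replicates 1 to 3, against 2.75, 2.74 and 2.77 in control replicates 1 to 3. Every mutant array lay above every control array, and mutant replicate 1 was the lowest of the mutant arrays for Ihh, as it was for Shh. The difference was 2.48 as a log2 fold change (SE 0.30, limma adjusted p = 0.00314), or 5.56-fold. The call of Ihh held on leaving out any 1 array (2.20 to 2.87, adjusted p of 6.99e-05 to 0.0188 from limma). With a floor of 16 it was lost, at 1.23 (limma adjusted p = 0.194), with the 3 control values at the floor, as they were for Shh. The methods' t-test did not call Ihh after Benjamini-Hochberg adjustment (t-test adjusted p = 0.0798).

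Dhh, the ligand known from Schwann and Sertoli cells, was at 2.45, 2.49 and 2.48 in the mutant, against 2.43, 2.40 and 2.41 in the control. The groups did not overlap, but they lay 0.06 apart on the log2 scale (95% interval -0.11 to 0.23, limma adjusted p = 0.66), and no array reached an intensity of 16. The other Dhh probe set was as dim, at 2.25 to 2.31 in the mutant and 2.24 to 2.33 in the control. Of 4 Schwann cell markers, Sox10, S100b and Cdh19 were also under this line on every array. The other, Mbp, a myelin protein, was above it on every array, at 4.50 to 4.99 in the mutant and 5.27 to 5.57 in the control, and fell by 0.59 on the log2 scale (limma adjusted p = 0.0416).

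**Figure D1:**
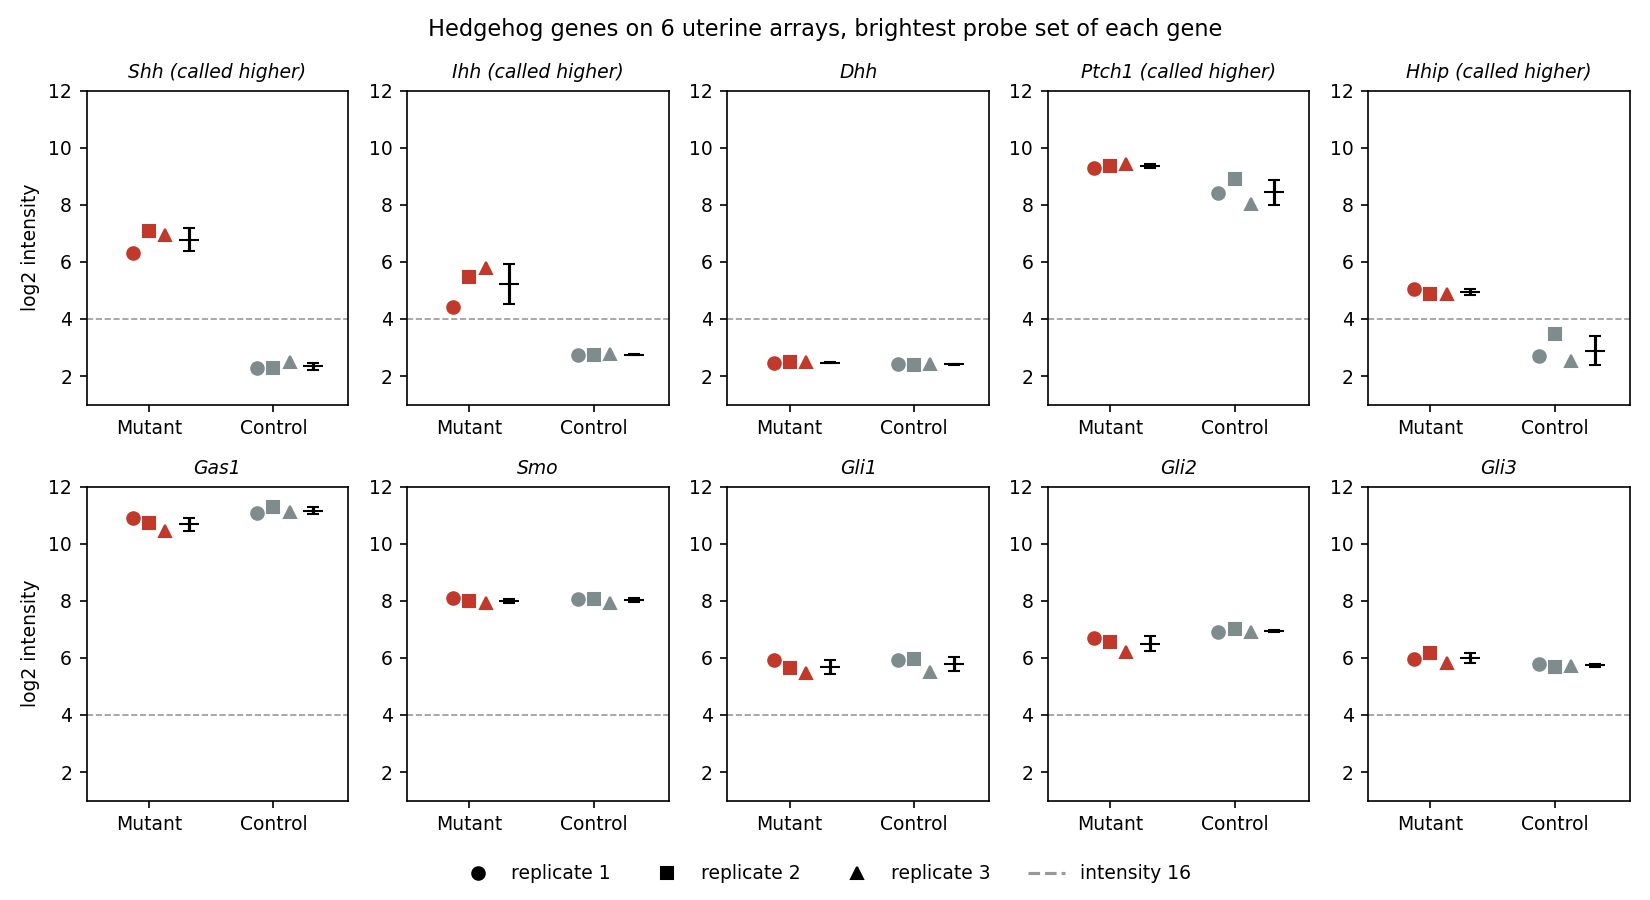
Each panel plots the log2 intensity (y axis) of 1 gene's brightest probe set for the 3 mutant (red) and 3 control (grey) arrays, with symbols for the replicate number, the mean and SD as black bars, and a dashed line at an intensity of 16. Shh, Ihh and Hhip lie above the line in the mutant and below it in the control, Ptch1 lies above it in both groups, and Dhh lies below it on every array.

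Hhip and Ptch1 are surface proteins that bind the ligands and are themselves induced by the pathway. Hhip had log2 intensities of 5.05, 4.89 and 4.89 in mutant replicates 1 to 3, against 2.70, 3.46 and 2.52 in control replicates 1 to 3. The mutant arrays lay close together, while control replicate 2 stood highest of the controls. Hhip rose with a log2 fold change of 2.05 (SE 0.22, limma adjusted p = 0.00194), or 4.14-fold, and it stayed called on leaving out any 1 array (1.86 to 2.33). With a floor of 16 it was at 0.94 (limma adjusted p = 0.0154) and with the mean of its probe sets at 0.87 (limma adjusted p = 0.00215). The methods' t-test did not call Hhip after Benjamini-Hochberg adjustment. Of the 4 probe sets of Hhip, the next brightest rose as well, by 0.73 (SE 0.13, limma adjusted p = 0.0147 over all probe sets). The remaining Hhip probe sets were at 0.53 (limma adjusted p = 0.055) and at 0.18 (limma adjusted p = 0.316) as log2 fold changes, with every array under an intensity of 16.

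Ptch1 was bright in both groups, with log2 intensities of 9.28, 9.37 and 9.43 in mutant replicates 1 to 3, against 8.40, 8.90 and 8.01 in control replicates 1 to 3. The groups were apart, and the controls varied more (SD 0.45) than the mutants (SD 0.08). Ptch1 rose with a log2 fold change of 0.92 (SE 0.20, limma adjusted p = 0.0262), or 1.90-fold. Its call did not survive the removal of mutant replicate 2 (0.92, limma adjusted p = 0.09), of mutant replicate 3 (0.89, limma adjusted p = 0.0736) or of control replicate 1 (0.91, limma adjusted p = 0.0934). The other probe sets of Ptch1 were dim, at 0.12 (limma adjusted p = 0.649) and at 0.23 (limma adjusted p = 0.196) as log2 fold changes, and with the mean of its probe sets Ptch1 was at 0.43 (limma adjusted p = 0.0557). With a floor of 16 on all genes, its log2 fold change was again 0.92 but did not pass (limma adjusted p = 0.148). Nor did the methods' t-test call Ptch1 after Benjamini-Hochberg adjustment (t-test adjusted p = 0.159).

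Among the controls, replicate 2 was highest and replicate 3 lowest for both Ptch1 and Hhip. The same held for the mean of the adipocyte markers, with a log2 intensity over 8 genes of 7.11, 7.57 and 6.89 in mutant replicates 1 to 3, against 6.03, 6.34 and 4.71 in control replicates 1 to 3. Of these genes, Lep and Lpl were not highest in control replicate 2. The order was not particular to fat genes. The stromal markers Hoxa10 (8.90, 9.39 and 8.75 in control replicates 1 to 3) and Thy1 (8.60, 8.69 and 8.14) had it too, while others, such as Vim, did not. Of the 8 adipocyte markers, 2 were called higher in the mutant and 0 lower, beside 5.61% and 6.36% of all genes. All mutant arrays lay above all control arrays for each of the 8, as they did for 14.9% of all genes. The called ones were Retn, a hormone of mouse fat cells, with a log2 fold change of 2.35 (limma adjusted p = 0.0407), and Cidec, a lipid droplet protein, with 1.82 (limma adjusted p = 0.009). Retn was at 8.43, 9.27 and 8.15 in the mutant, against 6.90, 7.10 and 4.82 in the control. Control replicate 2 also had low proliferation markers, with a mean of 4.67 over 15 genes. This mean was 6.54 to 6.88 in the mutant, and 6.59 and 6.69 in control replicates 1 and 3. Of the 15, 3 were called higher in the mutant and 0 lower, beside 5.61% and 6.36% of all genes. They were the replication helicase genes Mcm2, Mcm3 and Mcm4 (0.57, 0.94 and 0.61 as log2 fold changes). The part of fat tissue or of proliferation in the values of Ptch1 and Hhip was not tested. Without control replicate 2, the log2 fold changes of Ptch1 and Hhip were 1.16 (limma adjusted p = 0.00586) and 2.33 (limma adjusted p = 0.000531), and without control replicate 3 they were 0.71 (adjusted p = 0.0451) and 1.86 (adjusted p = 0.00781). Without control replicate 2 and mutant replicate 1 together, a setting chosen after seeing the data, the count of higher genes was again 4.

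Gas1 is a membrane-anchored coreceptor that helps Ptch1 bind the ligands. Its log2 intensities were 10.88, 10.71 and 10.44 in mutant replicates 1 to 3, against 11.07, 11.29 and 11.09 in control replicates 1 to 3. Every mutant array lay below every control array, and mutant replicate 3 was the lowest. The log2 fold change was -0.47 (95% interval -0.77 to -0.18), with an adjusted p of 0.0521 from limma, just short of the threshold. The other bright probe set of Gas1 was at -0.52 (limma adjusted p = 0.095 over all probe sets), again with the groups apart, and the dim one at -0.01. Gas1 passed without mutant replicate 1 (-0.58, adjusted p = 0.0307) and under 4 other settings, among them quantile normalization (-0.49, adjusted p = 0.0419, both from limma).

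Smo had log2 intensities of 8.08, 7.99 and 7.91 in the mutant, against 8.06, 8.05 and 7.93 in the control. These values overlapped, with a log2 fold change of -0.02 (95% interval -0.22 to 0.18, limma adjusted p = 0.92). The other probe sets of Smo were at -0.12 and 0.10, and neither passed.

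Gli1, both a carrier of the signal and a commonly used readout of it, did not pass the test. Its log2 intensities were 5.94, 5.66 and 5.46 in mutant replicates 1 to 3, against 5.92, 5.95 and 5.49 in control replicates 1 to 3. The groups overlapped over almost their whole range. The log2 fold change was -0.10 (95% interval -0.48 to 0.28, limma adjusted p = 0.761), from the 1 probe set of Gli1. The interval does not reach the log2 fold changes of Ptch1 and Hhip, the other target genes of the pathway among the members, but the difference between genes was not tested.

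Gli2, the main activator of target genes among the Gli factors, was at 6.71, 6.57 and 6.20 in mutant replicates 1 to 3, against 6.92, 7.0 and 6.91 in control replicates 1 to 3. All mutant values were under the control values, and mutant replicate 3 was again the lowest. The log2 fold change was -0.45 (95% interval -0.76 to -0.14, limma adjusted p = 0.0721), and the other Gli2 probe set was at -0.40 (limma adjusted p = 0.108 over all probe sets). Gli2 passed without mutant replicate 1 (-0.56, limma adjusted p = 0.0386). Gli3, the main repressor among them, was at 5.97, 6.17 and 5.83 in the mutant, against 5.79, 5.69 and 5.73 in the control. The Gli3 groups did not overlap, with a log2 fold change of 0.25 (95% interval 0.01 to 0.49, limma adjusted p = 0.17), and its other probe sets, at 0.13 and 0.07, overlapped between the groups.

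**Figure D2:**
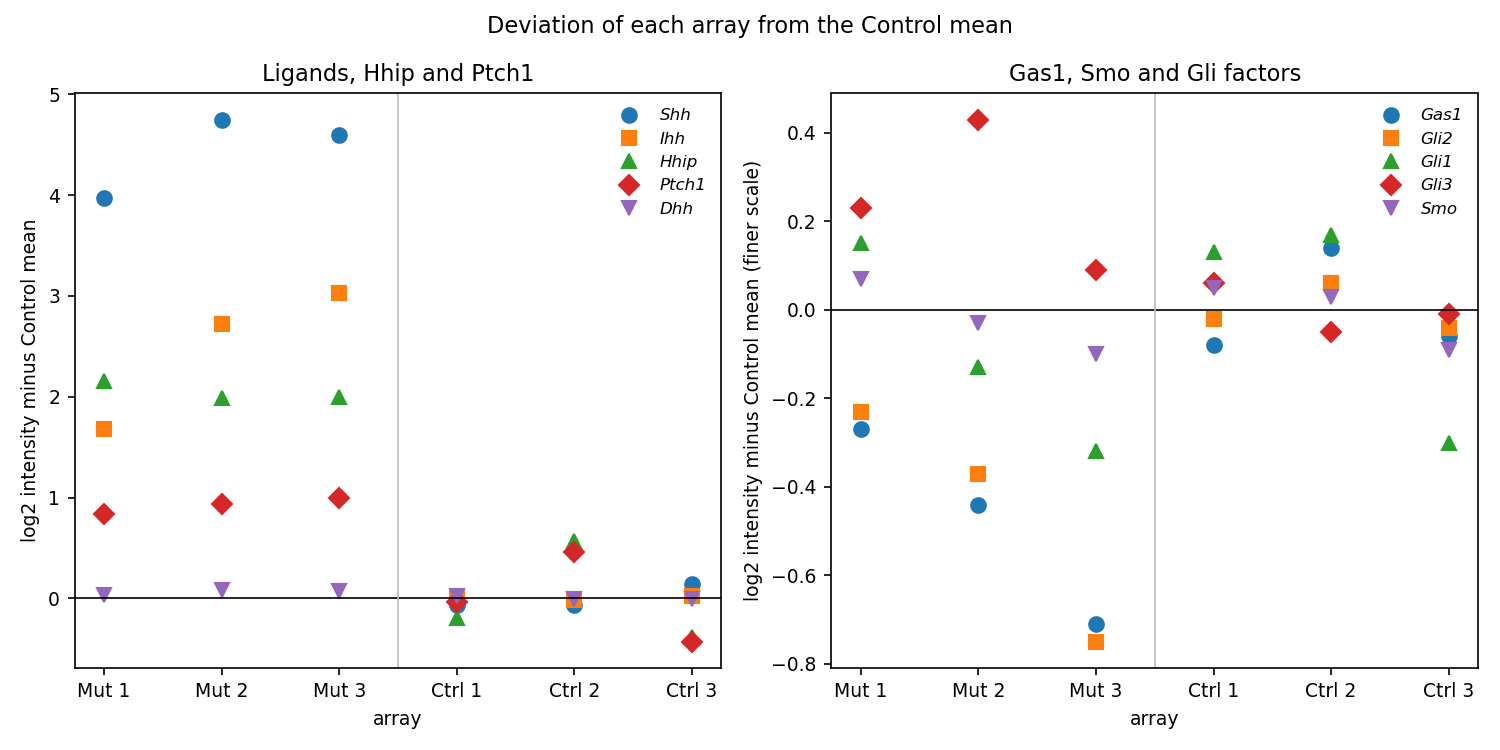
Each symbol is 1 gene's log2 intensity on 1 array (x axis) minus the mean of the 3 control arrays (y axis), with Shh, Ihh, Hhip, Ptch1 and Dhh on the left and Gas1, Gli2, Gli1, Gli3 and Smo on the right, on a finer scale. Shh and Ihh are lowest among the mutant arrays in replicate 1, at 3.97 and 1.68, and Gas1 and Gli2 are lowest in replicate 3, at -0.71 and -0.75.

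The mutant arrays did not move as 1 block. Mutant replicate 1 had the smallest change in Shh, Ihh and Ptch1 and also in Gas1 and Gli2, while Hhip was highest there. Mutant replicate 3 had the lowest Gli1, Gli2, Gas1 and Smo. It also held the most Ovgp1, the oviduct glycoprotein, named after its values were seen, at 8.01 against 3.44 and 4.32 in mutant replicates 1 and 2 and 2.49 to 4.60 in the control. The mean of all 6 oviduct and ciliated cell markers was 3.39 there and 2.57 and 2.69 on the other mutant arrays, against 2.29 to 2.58 in the control. Ovgp1 alone set this apart, as the other 5 markers were under an intensity of 16 on every array and at 1.74 to 3.14 on mutant replicate 3. Of the 6 markers, Foxj1 and Tekt1, genes of motile cilia, were called higher in the mutant (0.34 and 0.44 as log2 fold changes). None was called lower, and 5.61% of all genes were called higher and 6.36% lower. Ccdc39 (0.34), Dnah9 (0.05) and Dnah5 (-0.08) were not called, nor was Ovgp1. The part of oviduct RNA was not tested. Without mutant replicate 3, Shh was at 4.36, Ihh at 2.20, Gas1 at -0.36 and Gli2 at -0.30 on the log2 fold change scale.

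Over all 24 probe sets, 5 were called higher and 0 lower by limma with adjustment over all probe sets, against 3.49% and 3.41% of all probe sets. Of the 24, 11 had both group means under an intensity of 16, and 1 of these was called, the second of Hhip. Of the 13 with a brighter group mean, 4 were called higher. Those of Shh, Ihh and Hhip were over an intensity of 16 only in the mutant, so no share is read from this count.

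**Figure D3:**
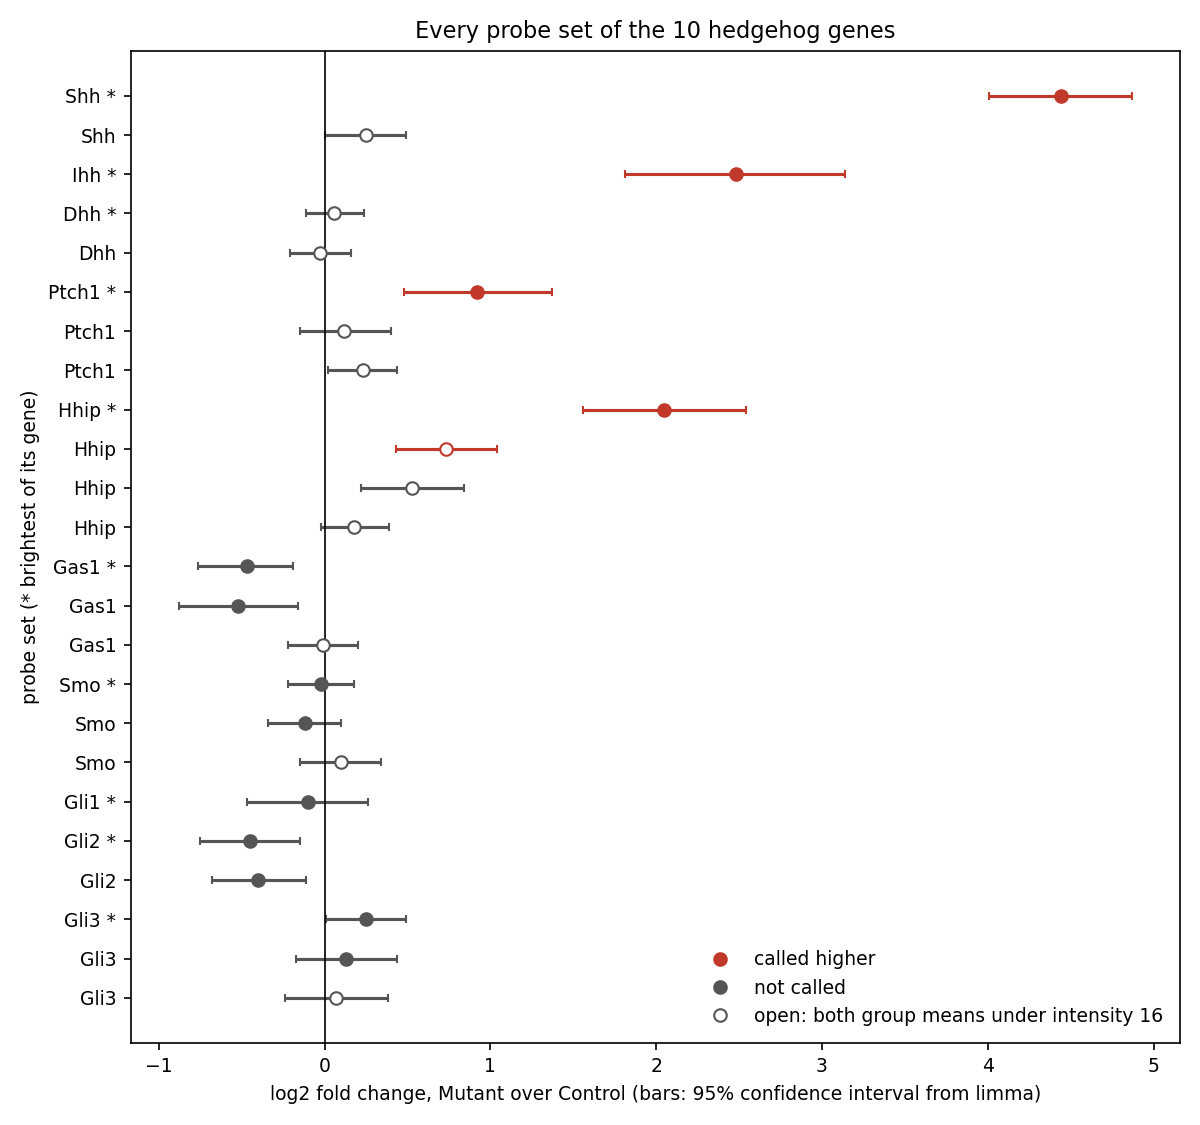
Points give the log2 fold change, mutant over control (x axis), for each of the 24 probe sets (y axis), with the 95% confidence interval from limma; red is called higher over all probe sets, and open points have both group means under an intensity of 16. The brightest probe sets of Shh, Ihh, Hhip and Ptch1 lie at 4.44, 2.48, 2.05 and 0.92, and the other probe sets of these genes are open points nearer to 0.

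A bulk uterine sample holds epithelium, stroma, muscle and other cells, and fewer cells of a type cannot be told apart from less RNA per cell. Of 17 epithelial markers, 1 was higher in the mutant, 4 were lower and 12 did not pass. Beside this, 5.61% of all genes were called higher and 6.36% lower. The 17 markers had a median log2 fold change of -0.40. Their mean log2 intensity was 7.06, 7.10 and 7.54 in mutant replicates 1 to 3, against 7.54, 7.43 and 7.59 in control replicates 1 to 3. Ihh, a ligand of this epithelium, rose on the same arrays, and the part of epithelial content was not tested. Those that fell were Ovol2 (-0.97), Elf3 (-0.85), Ehf (-0.82) and Krt18 (-0.80), as log2 fold changes. The 1 marker that rose was Foxa2, a factor of uterine glands, by 1.54 (SE 0.17, limma adjusted p = 0.00193). None of 11 stromal markers was called, and their means were 10.10 to 10.23 in the mutant, against 10.23 to 10.34 in the control. None of 9 smooth muscle markers was called either, with means of 8.63 to 8.96 in the mutant and 8.76 to 9.02 in the control. In these lists the smallest p-values were those of Pdgfra (-0.33) and Lum (-0.31) in stroma, and of Myocd (0.33) and Lmod1 (-0.27) in muscle, as log2 fold changes. Among leukocyte markers they were those of Adgre1 (0.19) and Ptprc (-0.23). None of 4 Schwann cell, 6 endothelial and 7 leukocyte markers was higher, and 1 Schwann cell marker (Mbp) and 1 endothelial marker (Tek, at -0.85) were lower. Among the stromal markers, 4 of 11 had all mutant arrays below all control arrays, as Gas1 and Gli2 did, against 17.4% of all genes, and the part of stromal content was not tested.

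**Figure D4:**
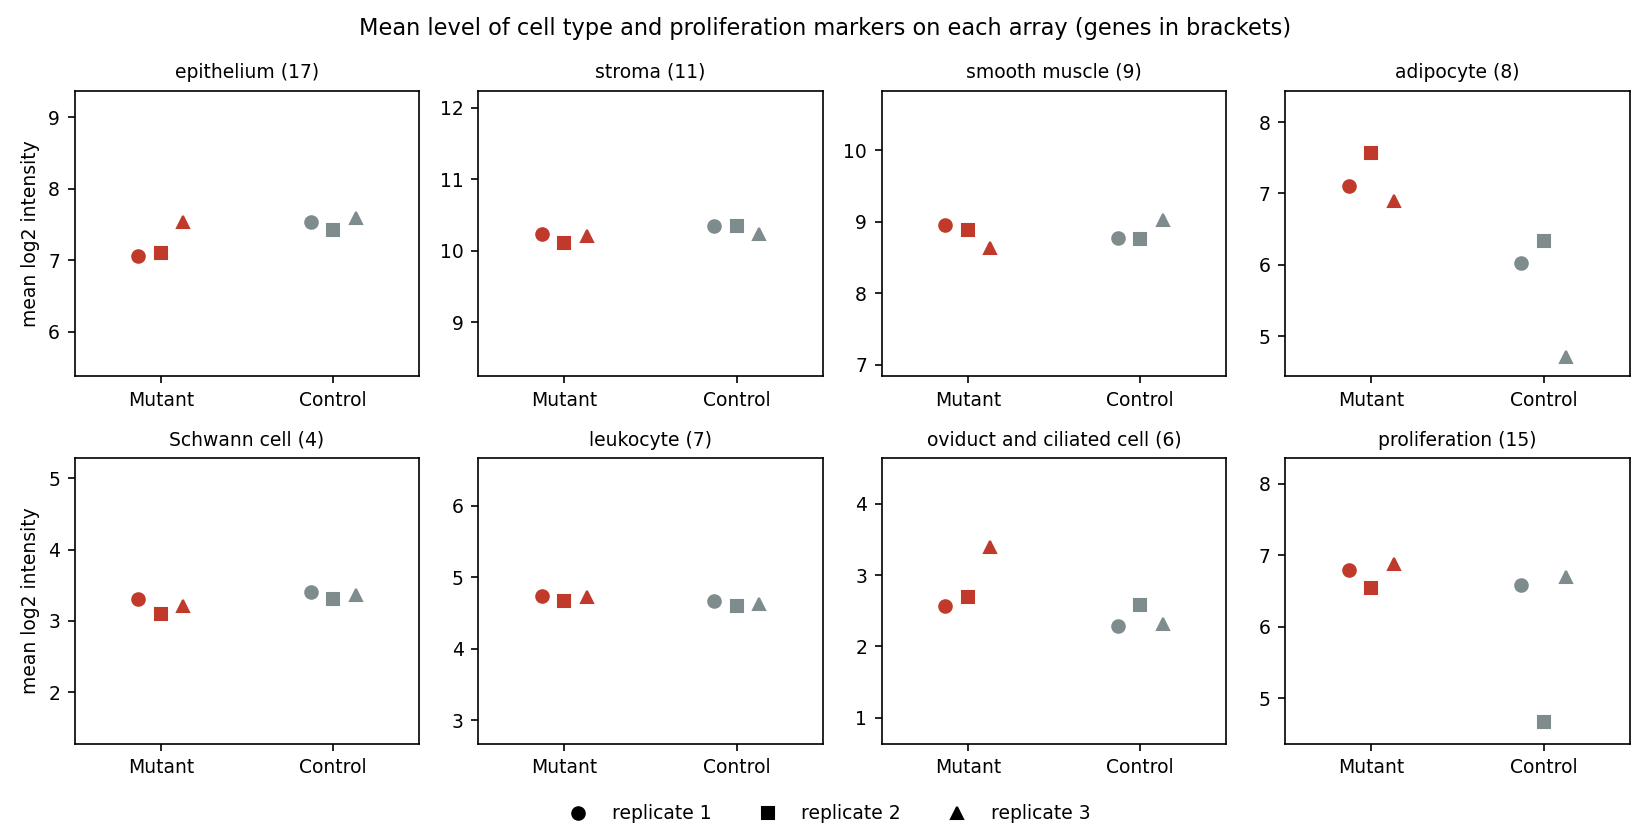
Each panel plots the mean log2 intensity (y axis, spanning the same log2 range in every panel) of a marker list, with its number of genes in brackets, for the 3 mutant (red) and 3 control (grey) arrays. Adipocyte markers lie higher in the mutant (6.89 to 7.57) than in the control (4.71 to 6.34), and proliferation markers are low on control replicate 2 alone (4.67).

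As a check of the labels, the transcripts of β-catenin target genes were read. Axin2, a feedback inhibitor of Wnt signaling, was at 8.45, 8.82 and 8.65 in the mutant, against 6.26, 5.94 and 5.88 in the control, and Nkd1 and Lef1 rose by 2.94 and 2.35 on the log2 scale (adjusted p = 0.000203 and 9.56e-05 from limma). Ctnnb1 was at 11.72 to 11.93 in the mutant and 11.51 to 11.54 in the control. No source used here places its probes relative to exon 3, so its level does not check the deletion.

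The other hedgehog genes were followed as lists. Of 39 listed genes for ligand release, other surface receptors and signal transduction, 35 were measured. By limma's adjusted p, 0 were called higher and 0 lower, beside 5.61% and 6.36% of all genes. At an unadjusted p under 0.05, 2 were higher and 5 lower, with the share of all genes at this threshold not counted. The median log2 fold change of the 35 was 0.01, and the range was -0.46 to 0.34. Among 7 genes of ligand processing and release, Disp1, which lets the lipid-bearing ligands leave the cell, was at 4.52, 4.83 and 4.69 in the mutant, against 4.49, 4.31 and 4.26 in the control, and Hhat, which attaches their palmitate, was at 0.13 as a log2 fold change (adjusted p = 0.1 and 0.562 from limma). Neither passed the test.

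Of the other surface receptors, 4 of 5 were measured. Cdon, a coreceptor that works beside Gas1, was at 6.88, 6.59 and 6.28 in mutant replicates 1 to 3, against 6.96, 7.13 and 7.07 in control replicates 1 to 3. As for Gas1 and Gli2, all mutant arrays lay below all control arrays and mutant replicate 3 was the lowest, and the log2 fold change of -0.46 (SE 0.15, limma adjusted p = 0.0888) did not pass. It passed without mutant replicate 1, as did Gas1 and Gli2. Gpc3, a glypican that competes with Ptch1 for ligand, was at a log2 fold change of 0.24 (limma adjusted p = 0.411).

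Of 27 genes of signal transduction inside the cell, 24 were measured, with a median of -0.05 and a range of -0.37 to 0.34. Ift172, a protein of transport in the primary cilium, on which mammalian hedgehog signaling depends, was at 6.07, 5.79 and 6.11 in the mutant, against 6.28, 6.36 and 6.45 in the control (log2 fold change -0.37, limma adjusted p = 0.066). Iqce, a ciliary protein, was at a log2 fold change of -0.33 (limma adjusted p = 0.0869). Sufu, the cytoplasmic inhibitor of Gli factors, named after its values were seen, was at 5.91 to 6.01 in the mutant and 5.70 to 5.92 in the control (limma adjusted p = 0.202).

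**Figure D5:**
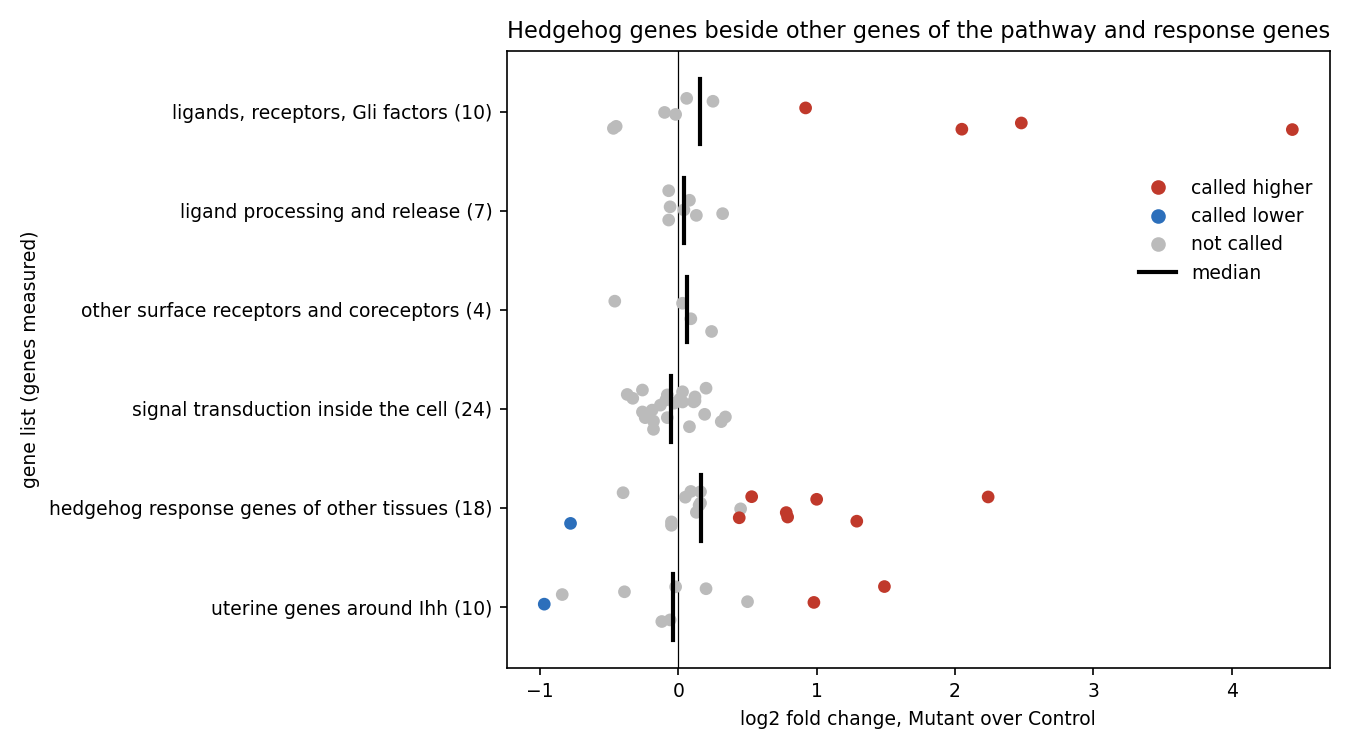
Genes are plotted by list (y axis, number measured in brackets) against the log2 fold change, mutant over control (x axis). Calls by limma are red where higher and blue where lower, other genes are grey, and black bars mark medians. All 35 genes of the 3 lists for release, other receptors and transduction are grey, between -0.46 and 0.34, while the called members reach 4.44.

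Genes known to respond to hedgehog signals were listed in 2 groups, chosen with earlier results of these data known. Of 18 measured genes from other tissues, 7 were higher in the mutant, 1 was lower and 10 did not pass, with a median of 0.16, where 5.61% of all genes were called higher and 6.36% lower. Grem1, a BMP antagonist, was at 4.68, 4.32 and 5.84 in the mutant, against 2.62, 2.91 and 2.62 in the control, and rose by 2.24 on the log2 scale (SE 0.35, limma adjusted p = 0.00796). Prdm1, a transcriptional repressor, rose by 1.29, Sfrp1, a secreted Wnt antagonist, by 1.00, and Bmp4, a BMP ligand, by 0.79 (adjusted p = 0.00133, 0.00532 and 0.00495 from limma). These 4 stayed called on leaving out any 1 array. With a floor of 16 on all genes, Prdm1 and Bmp4 stayed called while Grem1 and Sfrp1 did not. All arrays of Sfrp1 lay above this floor, so its own values were unchanged, while the control arrays of Grem1 lay under it. The methods' t-test called none of the 4 after Benjamini-Hochberg adjustment.

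The other called genes of this group, named after their values were seen, were Ccnd1 (0.78), Foxf1 (0.53), Snai1 (0.44) and, lower, Mycn (-0.78), as log2 fold changes. The calls of Foxf1 (adjusted p up to 0.0749), Snai1 (up to 0.112) and Mycn (up to 0.0564) were lost on leaving out 1 array: Foxf1 without control replicate 1 or 3, Mycn without mutant replicate 2, and Snai1 without any array but control replicate 2. Ccnd1, a cyclin of G1, is also known as a target of β-catenin. Whether β-catenin acts on the other response genes was not tested. Responses to hedgehog and to β-catenin cannot be told apart on these arrays. Foxf1, a forkhead factor of mesenchyme, and Bmp4 are known hedgehog targets in gut and lung mesenchyme, and Mycn in cerebellar granule cell precursors.

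Of 10 measured uterine genes around Ihh, 2 were higher, 1 was lower and 7 did not pass, with a median of -0.04, again beside 5.61% of all genes called higher and 6.36% lower. Pgr, the progesterone receptor that induces Ihh and whose locus carries the Cre, was at 9.61, 9.29 and 9.39 in the mutant, against 10.30, 10.56 and 10.35 in the control. The Pgr groups did not overlap, and Pgr fell by 0.97 on the log2 scale (SE 0.11, limma adjusted p = 0.0027), in the same arrays in which Ihh was higher. Every mutant carries Cre in 1 Pgr allele, and the controls on these arrays are labelled wild type, so the Cre allele and the activation of β-catenin cannot be told apart for Pgr.

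Hand2, a stromal factor of the progesterone response, was at 9.36 to 10.02 in the mutant and 8.14 to 8.43 in the control, and rose by 1.49 (SE 0.18, limma adjusted p = 0.00315). The call of Hand2 was lost with a floor of 16 on all genes, although all of its arrays lay above this floor and its own values were unchanged. Wnt4, a Wnt ligand of the stroma, rose by 0.98 (limma adjusted p = 0.0324), a call lost without any array other than mutant replicate 3 (0.73 to 1.21, adjusted p up to 0.106). The call was also lost with a floor of 16 on all genes, again with all arrays of Wnt4 above the floor. Nr2f2, the stromal receptor known to act downstream of Ihh, named after its values were seen, was at 8.97, 8.92 and 8.92 in the mutant, against 8.84, 9.11 and 8.91 in the control. These values overlapped (log2 fold change -0.02, limma adjusted p = 0.941). Sox17, an epithelial factor that acts upstream of Ihh, also named after its values were seen, was at 9.46 to 9.83 in the mutant and 9.89 to 10.07 in the control (log2 fold change -0.39, limma adjusted p = 0.0731).

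The genes most like Shh, Ihh and Hhip in pattern were found by the Euclidean distance between log2 values over the 6 arrays, each gene taken relative to its control mean. Nearest to Shh were Ccn5 (distance 0.40), Cadps (0.62) and A2ml1 (0.83). Ccn5, a secreted matricellular protein, was at 6.59, 7.44 and 7.73 in the mutant, against 2.76, 2.66 and 2.95 in the control. Nearest to Ihh were Cpa6, Vcan and Thbs1, each at a distance of 0.56. Nearest to Hhip were Prkg2 (0.59), Apcdd1 (0.68) and Tspan12 (0.69). Apcdd1, a membrane inhibitor of Wnt signaling, was at 11.19, 11.65 and 11.53 in the mutant, against 9.57, 9.67 and 9.17 in the control. With 3 arrays a group, this distance depends largely on the size of the difference between the groups.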

How the data were processed

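Uterine RNA of 3 mutant and 3 control samples was hybridized to Affymetrix arrays, and samples were grouped by their titles. The authors deposited linear intensities, 1 for every probe set on every array, from 1.99 to 10886.56. The submitters' processing notes name RMA, which corrects background, normalizes quantiles and summarizes each probe set; the sources used here give neither its version nor a filter. Array medians were 7.23 to 7.42. The number of arrays limits the precision.

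After a floor of 1, which changed 0 values, log2 was taken. Of 45037 probe sets, 34945 had 1 gene symbol in GEO's platform annotation, 932 had several and 9160 had none; none was named from several. Where a gene had several probe sets, the one brightest on average stood for it, which gave 18193 genes. The test was limma 3.58.1 (lmFit and eBayes, without covariates) in R 4.3.3. Its p-values were adjusted by Benjamini-Hochberg across all genes, or across all probe sets where so stated. An adjusted p under 0.05 was the threshold. Errors beside fold changes are limma's standard errors, and intervals are 95% intervals from the same fit. The steps were checked on simulated data.

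The members and lists were chosen with earlier results of these data known. Named genes are all members with every probe set, for each other list up to 4 called genes (by size of change) or, where none was called, 2 genes by smallest p, defining markers at or near background, the label check genes, and the 3 nearest genes to Shh, Ihh and Hhip. Krt18 and the genes so marked in the text were named after their values were seen. Alternatives covered scaling, the choice of probe sets, a filter on the lowest 40% of genes, a floor of 16, the spread, the replicate number, the methods' t-test, the fold threshold and leaving out each array. Marker genes and pathway genes with no single-symbol probe set were not analysed here. The ChIP-seq, RT-qPCR, staining, human and cell line experiments were not used here.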

Additional observations from a re-analysis of the deposited data

How the results depend on the processing

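The count of 4 higher members stayed at 4 or 3 on leaving out 1 array (3 without mutant replicate 2, mutant replicate 3 or control replicate 1, each time without Ptch1). It was 2 with a floor of 16 (Shh and Hhip) and 1 with the methods' t-test after Benjamini-Hochberg (Shh). At an unadjusted p under 0.05 that test gave 5 higher and 2 lower, with no share of all genes counted at this threshold. The count of 0 lower members was 1 with quantile normalization, with the lowest 40% of genes left out and with an intensity trend (Gas1 each time), 2 with array weights (Gas1 and Gli2), and 0 to 2 on leaving out 1 array. The limma fit over all arrays gave 2 lower members at an unadjusted p under 0.05, Gli2 and Gas1, again with no share of all genes counted.

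Of the 35 other pathway genes, the counts were 0 higher throughout, and 1 lower with probe sets averaged per gene (Cdon) and with array weights (Iqce), and 0 to 1 on leaving out 1 array. Of the 28 response genes, 9 were higher (6 to 9 on leaving out 1 array, 3 with a floor of 16, which were Ccnd1, Bmp4 and Prdm1, 1 with the methods' t-test) and 2 were lower (1 to 3 on leaving out 1 array). The lower count was 1 with the mean of probe sets, with a floor of 16 and without control replicate 2 and mutant replicate 1 together, 5 with array weights and 0 with the methods' t-test. The cause of these differences was not tested.

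Directions turned only near 0: Smo was at -0.06 to 0.02 and Gli1 at -0.25 to 0.01 on leaving out 1 array. Dhh gave no value with a floor of 16, as every array then stood at the floor. The replicate block left 4 members higher and 0 lower, and 9 response genes higher and 2 lower, with Bmp2 gained and Wnt4 lost. Same-numbered arrays had correlations of 0.01, 0.21 and 0.16 in their deviations across genes. Each mutant array correlated best with the control of its number, and control replicates 2 and 3 best with the mutant of theirs. Control replicate 1 correlated best with mutant replicate 3 (0.11). The main fit did not take the numbers as pairs, while the replicate block did. Over all genes, 1021 were higher and 1157 lower, against 283 and 243 with a floor of 16, 105 and 39 with the methods' t-test, 480 and 372 without control replicate 1, 580 and 493 without mutant replicate 2, 682 lower without control replicate 2, and 760 lower without mutant replicate 3. The shift of the median of all genes stayed under 0.1 on the log2 scale in every scaling. Values under an intensity of 16, as for Shh, Ihh and Hhip in the control, limit how far a fold change can be read.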
